A study of Mus musculus with 2 samples.

Results

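Phip, Ncor1, Ash1l, Arid4a, Arid4b, Atad2 and Asf1a are 7 mouse genes whose proteins read, modify or assemble chromatin, and peaks of a YTHDF2 RNA immunoprecipitation lay over each of them. They were chosen by name because the authors' gene table lists a peak for each, so having a peak is not a result here. They are 7 of the 1285 genes in that table. Over their gene bodies, from annotated start to annotated end, the authors' list held 54 of its 9271 peaks. Of these, 14 stood in the gene table, which pairs 1541 peaks with genes, and 40 did not.

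The material was C2C12, a mouse myoblast line that fuses into myotubes when serum is lowered. Wild-type cells were kept in 2% horse serum for 4 to 5 days with no further treatment. The 2 groups were YTHDF2 RIP, the RNA recovered with an anti-YTHDF2 antibody, and input, with 1 library each and batch label 1 on both. With no replicates, no difference below has a replicate check, and the intervals given cover counting error only. An IgG control is named in the study's design and was not analysed here. The labels' protocol words its library preparation for DNA, and whether a fragment came from RNA or DNA was not tested. Expression is unknown, so more of a transcript and more YTHDF2 per transcript cannot be told apart.

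YTHDF2 is a cytoplasmic reader of N6-methyladenosine (m6A), a methyl mark on adenosines of messenger RNA. It binds the mark through its YTH domain and recruits deadenylases and other decay factors, so that bound transcripts are shortened and degraded. In messenger RNA the mark is known to be most frequent in long internal exons and near stop codons, in sequences with a GGAC core. Chromatin regulators act on the other side of the nuclear envelope: readers bind modified histone tails, writers add marks, corepressors bring deacetylases, and chaperones carry histones to DNA. A muscle cell that leaves the cell cycle rebuilds its chromatin as it turns on contractile genes, and regulators of these kinds take part in that switch.

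Each peak was described by the number of RIP fragments at its summit, the input background there and the fold enrichment, the linear ratio of the RIP to that background with 1 added to each. The 14 table peaks of the 7 genes had 24 to 156 fragments and fold enrichments of 1.8 to 9.33, with a median of 3.31 beside 3.25 over all 1541 table peaks. The 40 peaks outside the table had 12 to 69 fragments and fold enrichments of 2.53 to 9.63, with a median of 5.01 beside 4.58 over the 7730 such peaks of the list. In both sets the median of the 7 genes lay close to that of the list. Peaks outside the table stood on less input: the median background was 3.95 for them and 14.0 for the table peaks.

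**Figure D1:**
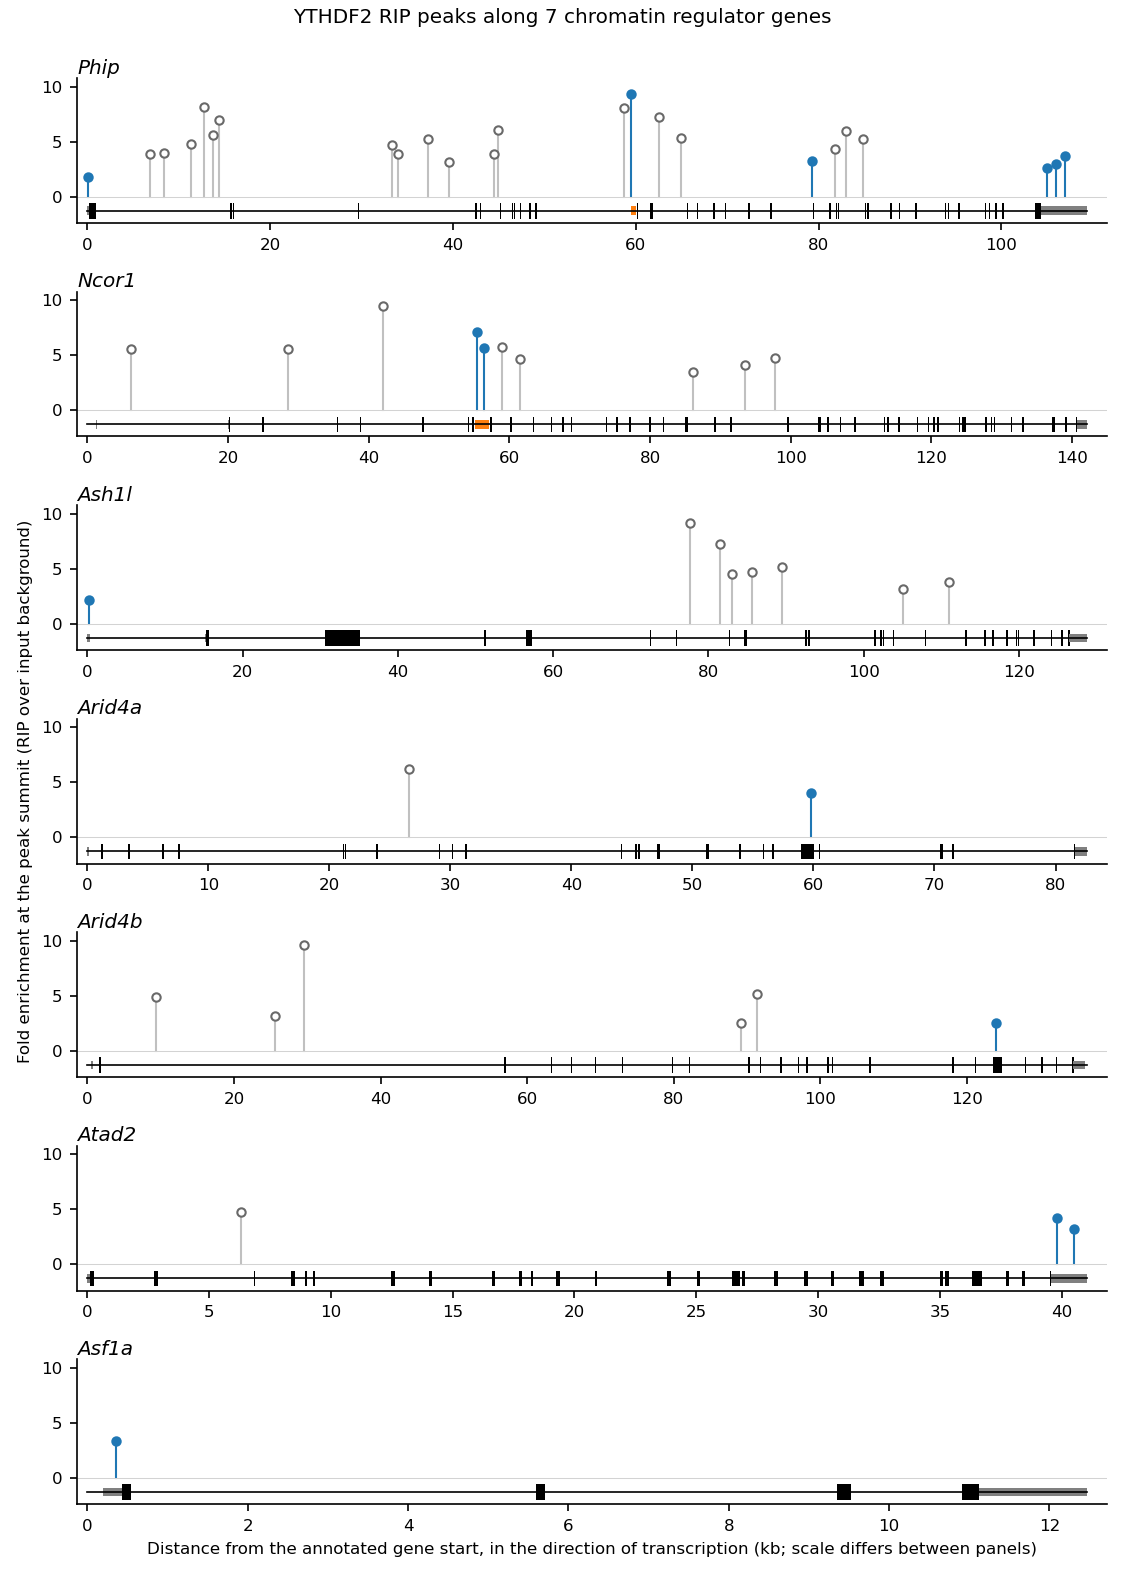
Peaks along the 7 genes. The horizontal axis is the distance from the annotated gene start in kb, in the direction of transcription. The vertical axis is the fold enrichment at the summit. Filled blue points are peaks of the authors' gene table, and open points are peaks outside it. Black boxes are coding exons and grey boxes untranslated regions of the principal transcript. Orange boxes are exons of other transcripts that a table peak overlaps. The 63-base Phip exon and other narrow exons are drawn wider than scale so that they can be seen. Phip has 24 peaks spread over its length, the 7 intron peaks of Ash1l lie between 60.3% and 86.0% of its length, and no peak lies in the last 44.4 kb of Ncor1.

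The number of peaks differed widely among the 7 genes. Phip had 24 peaks over its body, Ncor1 10, Ash1l 8, Arid4b 6, Atad2 3, Arid4a 2 and Asf1a 1. Among 21728 protein-coding genes, 5.87% had a peak in the gene table and 15.1% had a peak anywhere over the body. The 7 gene bodies sum to 653 kb and carried 8.27 peaks per 100 kb, against 0.852 over all protein-coding genes and 2.85 over those with at least 1 peak. Since the rule chose genes with peaks, these densities describe the choice. Phip with 6 table peaks and Ncor1 and Atad2 with 2 each had more than 1, that is 3 of 7 genes, where 17.1% of the table's genes did. The 7 genes were chosen with earlier results of these data known, so this share is not independent of the choice. Their median length was 109 kb, against 32.6 kb over the table's genes.

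Phip encodes a reader of histone methylation that carries WD40 repeats and bromodomains and serves a CUL4 ubiquitin ligase as substrate receptor. The gene runs over chr9:82866159-82975516 on the minus strand (mm10), and its principal transcript, Phip-201, has 40 exons. Its 6 table peaks are as many as any gene has, a number shared with Syncrip, Rock2 and Rbm26. Its 24 body peaks amount to 21.9 per 100 kb, and 11 protein-coding genes, Phip included, have at least that many.

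In Phip, 3 table peaks lay in the 3' UTR of Phip-201, which is 5065 bases long. From the stop codon towards the 3' end they had 40 fragments over a background of 13, 51 over 15 and 48 over 11. Their fold enrichments were 2.64 (95% interval 1.91 to 3.57), 2.93 (2.20 to 3.83) and 3.68 (2.74 to 4.86). The 3 intervals overlap, and the sites were not tested against each other. Another table peak, chr9:82896069-82896292, covered 73 bases of exon 24 and had 24 fragments over 6.0, a fold enrichment of 3.23 (2.12 to 4.73), with its summit 56 bases away from the exon. The peak at the start codon, chr9:82975225-82975552, had 49 fragments over 24.0, the highest background of any Phip peak. Its fold enrichment of 1.80 (1.35 to 2.37) was the lowest of the 54 peaks, and its −log10 q-value of 1.48 lay just above the lowest of the whole list, 1.43. That peak is rich in CpG, with 44 of these dinucleotides and an observed over expected ratio of 1.01, and reaches past the annotated gene start.

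The strongest Phip peak, chr9:82915923-82916146, had 30 fragments over a background of 2.0, a fold enrichment of 9.33 (6.41 to 13.2). The authors' table marks it for a stop codon, and that stop codon is not the one that ends the full-length protein. The peak lies in intron 15 of Phip-201, 10972 bases long, 621 bases from the nearest exon of that transcript. It covers a 63-base exon, chr9:82915962-82916024, used by Phip-202 and Phip-214. GENCODE annotates both as targets of nonsense-mediated decay, the pathway that destroys messages with an early stop. The exon makes up 63 of the peak's 224 bases, and the summit, at chr9:82916045, lies outside it. In Phip-214 this exon holds the stop codon, which ends 53 bases downstream of the peak's summit. The 30 bases around that stop and around the stop of the full-length transcript, chr9:82871211-82871240, are shown because the table's mark does not tell them apart, with the stop codon in capitals.
Phip-214 stop, chr9:82915979-82916008, minus strand: cattcgttctggatTAAtggaactggaaaa
Phip-201 stop, chr9:82871211-82871240, minus strand: atttaattggttggTAActtgaagcaaaat
Without this peak the highest Phip table peak is the last one in the 3' UTR, at 3.68. Another peak 817 bases away in the same intron, outside the table, had 28 fragments over 2.23 and a fold enrichment of 8.11 (5.49 to 11.6). Both peaks fall in an exon of Phip-203, a retained-intron transcript, so this stretch of intron 15 held the 2 Phip peaks with the highest −log10 q-values, 17.1 and 14.0.

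All 18 Phip peaks outside the table, the intron 15 one included, had their summits in introns. Over these 18, fragments ran from 16 to 34 and fold enrichment from 3.11 to 8.13, with a median of 5.25. Intron 4, 14.8 kb long, held 6 of them at 3.85 to 8.13, and intron 7, 12.7 kb long, held 4 at 3.11 to 5.27. Introns 9, 17 and 27 held 2 each. One peak outside the table, chr9:82893634-82894047 with a fold enrichment of 4.35 (2.71 to 6.66), covered 16 bases of coding exon 26, although its summit lay in intron 25. The nearest relatives of Phip, Brwd1 and Brwd3, are of similar length, 90.4 and 97.4 kb, and had 1 body peak each and none in the table.

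Atad2 encodes a chromatin ATPase with a bromodomain that binds acetylated histones and works with E2F and MYC in proliferating cells. Both of its table peaks lay in the 1481-base 3' UTR of Atad2-201 (chr15:58094044-58135082, minus strand). The peak nearer the stop codon, chr15:58095176-58095374, had 60 fragments over 12.0, a fold enrichment of 4.23 (3.25 to 5.42). The distal peak, chr15:58094319-58094683, had more fragments, 82, on more input, 22.0, and a fold enrichment of 3.25 (2.60 to 4.03). The intervals overlap. The remaining peak, in intron 2 and outside the table, rested on 12 fragments over 1.47, the fewest of the 54 peaks. Its fold enrichment was 4.78 (2.66 to 8.04), and 97.8% of its bases are masked as repeats in the genome. The paralog Atad2b had 5 body peaks and none in the table.

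Ncor1 encodes a large scaffold that joins nuclear receptors to the deacetylase HDAC3. It spans 142 kb at chr11:62316426-62458541 on the minus strand. Its 2 table peaks had the highest fold enrichments of the 14 after the Phip peak above. The first, chr11:62402995-62403267, had a pileup of 90.9, in which 0.9 stands for 1 fragment, over 12.0 and a fold enrichment of 7.07 (5.77 to 8.57), with a −log10 q-value of 40.7, the highest of the 54 peaks. The second, chr11:62401900-62402315, had 51 fragments over 7.25 and 5.68 (4.26 to 7.43). Those intervals overlap as well.

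The table marks both Ncor1 peaks for a 3' UTR, and this is the 3' UTR of a short transcript. Ncor1-203 has 9 exons, a coding sequence of 876 bases and a 3' UTR of 2049 bases. Ncor1-201, the principal transcript, has 46 exons and a coding sequence of 7365 bases. Both peaks lay whole inside exon 9, the last exon of Ncor1-203, which falls in intron 8 of Ncor1-201, with summits 262 and 1274 bases after the short transcript's stop codon. The 3' UTR of Ncor1-201, 1417 bases long, and its coding exons held 0 peaks of the list. The stop codons of both transcripts, in capitals, lie 85.6 kb apart in the gene.
Ncor1-203 stop, chr11:62403419-62403448, minus strand: ggcgcatgatgaagTAAgataatgaagctt
Ncor1-201 stop, chr11:62317830-62317859, minus strand: ctgatagtgacgacTGAgctgtgcgtggga
The 8 Ncor1 peaks outside the table were all in introns, with fold enrichments of 3.51 to 9.48. The strongest, chr11:62416220-62416571 in intron 5, had 41 fragments over 3.0, a fold enrichment of 9.48 (6.87 to 12.8). No peak of any kind lay in the last 44.4 kb, which hold 24 of the 46 exons of Ncor1-201.

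Arid4a and Arid4b are paralogs whose proteins, with an ARID DNA-binding domain and histone-reading domains, belong to the SIN3-HDAC corepressor. Each had 1 table peak, and in both it lay whole inside coding exon 20 of 24. These exons are long for coding exons, 1134 bases in Arid4a and 1215 in Arid4b. Both peaks had 119 fragments at the summit. The input background was 26.0 in Arid4a and 42.0 in Arid4b, so the fold enrichments were 4.00 (3.32 to 4.78) and 2.51 (2.09 to 3.0). These intervals do not overlap, and with equal fragments the gap comes from the background alone, whose own counting error they leave out.

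The summits fell at 76.8% of the coding sequence in Arid4a and at 71.9% in Arid4b, 880 and 1108 bases before its end. The 2 coding sequences align with 2400 of 3587 bases identical (66.9%). In that alignment the Arid4a summit corresponds to base 3014 of the Arid4b coding sequence, 177 bases beyond the Arid4b summit at base 2837. The best local alignment of the 2 peak sequences themselves was a 10-base run. Whether the peaks overlap in the alignment of the coding sequences was not determined. Both are printed on the gene's strand with each GGAC, the core of the m6A consensus, in capitals.
Arid4a exon 20 peak, chr12:71075622-71075894, plus strand: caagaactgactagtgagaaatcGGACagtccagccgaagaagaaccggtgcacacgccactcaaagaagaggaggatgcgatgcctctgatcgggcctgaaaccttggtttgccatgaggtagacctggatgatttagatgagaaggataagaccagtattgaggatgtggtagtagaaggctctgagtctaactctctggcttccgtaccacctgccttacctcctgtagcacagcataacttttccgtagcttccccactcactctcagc
Arid4b exon 20 peak, chr13:14187421-14187663, plus strand: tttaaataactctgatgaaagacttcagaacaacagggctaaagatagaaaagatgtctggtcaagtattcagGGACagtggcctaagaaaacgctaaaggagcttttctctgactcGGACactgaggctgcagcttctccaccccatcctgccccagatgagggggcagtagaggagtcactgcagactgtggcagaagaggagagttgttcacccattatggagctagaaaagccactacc
Arid4a held 1 GGAC and Arid4b 2.

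Outside the table, Arid4a had 1 further peak, in intron 8, with 16 fragments over 1.49 and a fold enrichment of 6.19 (3.71 to 9.80). Arid4b had 5, at 2.53 to 9.63, of which 3 lay in its 55.3 kb intron 2. The strongest of these had 45 fragments over 3.31 and, at 9.63 (7.08 to 12.8), the highest fold enrichment of the 54 peaks.

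Ash1l encodes a methyltransferase that places methyl groups on lysine 36 of histone H3 and keeps developmental genes active against Polycomb. Its table peak, chr3:88950736-88950936, lay in the 5' UTR and had the most fragments of all 54 peaks, 156, on the highest background, 64.0. Its fold enrichment was therefore low, 2.18 (1.85 to 2.54). The table gives the same peak to Dap3, which starts 559 bases away on the opposite strand, and reads of the 2 genes cannot be told apart here. The 8877 coding bases of Ash1l and its 2293-base 3' UTR held 0 peaks.

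The 7 other Ash1l peaks were in introns and outside the table, at fold enrichments of 3.11 to 9.12. They lay between 77.6 and 111 kb from the gene start, whereas the 77.4 kb between the 5' UTR peak and the first of them were without a peak. The strongest, chr3:89028102-89028319 in intron 7, had 32 fragments over 2.27, a fold enrichment of 9.12 (6.33 to 12.7), and falls in an exon of the retained-intron transcript Ash1l-204. It is printed with its GGAC in capitals because that GGAC sits in a run found in several peaks.
Ash1l intron 7 peak, chr3:89028102-89028319, plus strand: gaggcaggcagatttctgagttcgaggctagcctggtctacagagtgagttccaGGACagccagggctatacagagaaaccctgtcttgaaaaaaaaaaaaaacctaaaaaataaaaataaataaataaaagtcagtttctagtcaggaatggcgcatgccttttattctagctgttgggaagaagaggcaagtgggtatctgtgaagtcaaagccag
A run of 39 bases around this GGAC is identical in the second Ncor1 table peak, and is masked as repeat in both. A Phip peak, the one that touches exon 26, carries it too. The run was chosen from the Ncor1 and Ash1l peaks, so their holding it is no finding. Counted on either strand, it was in 144 of the 9271 peaks (1.55%) and in 31 (0.334%) of windows of the same width just before them. It was rare in the gene table, with 3 of 1541 peaks (0.195%) and as many of their shifted windows.

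Asf1a encodes a chaperone that hands histones H3 and H4 to the assembly factors CAF-1 and HIRA. It is the shortest of the 7 genes, 12.5 kb, and the only one with no peak outside the table. Its single peak, chr10:53597022-53597216, spans the start codon and had 96 fragments over 25, a fold enrichment of 3.36 (2.73 to 4.10). It holds 22 CpG, with an observed over expected ratio of 1.27, and the table also gives it to Mcm9, a gene on the opposite strand. The paralog Asf1b had 0 body peaks. The start codons under the Asf1a and Phip peaks are shown in capitals with their surroundings.
Asf1a-201 start, chr10:53597177-53597206, plus strand: ttttcttcaaaatATGgcaaaggttcaggt
Phip-201 start, chr9:82975276-82975305, minus strand: agtgacccgcaaacATGtctcgtgagagga
The 3 table peaks at gene starts, in Phip, Ash1l and Asf1a, all had backgrounds of 24.0 or more and CpG ratios of 0.94 or more.

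**Figure D2:**
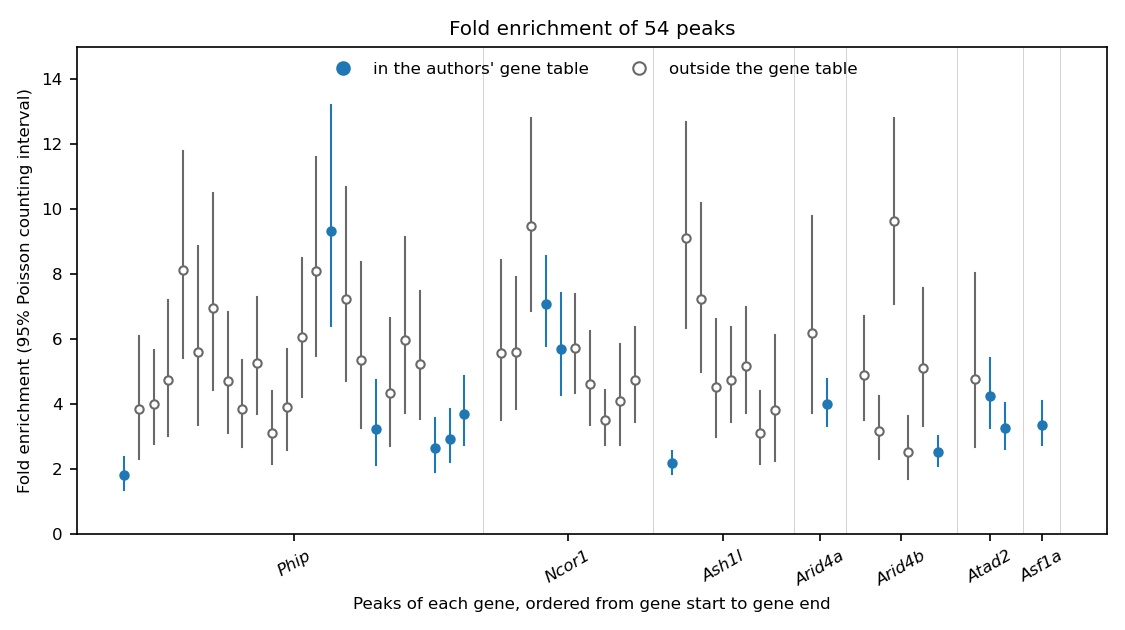
Fold enrichment of the 54 peaks, grouped by gene and ordered from gene start to gene end. The vertical axis is the fold enrichment at the summit, a linear ratio, with bars for the exact 95% Poisson interval of the RIP fragments at a fixed background; filled blue points are in the gene table, open points outside it. The highest point is the Arid4b intron 2 peak at 9.63 and the lowest the Phip start codon peak at 1.80.

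Across the 7 genes, where a peak lay and how much input lay under it went together. Of the 54 peaks, 33 (61.1%, exact 95% interval 46.9 to 74.1) touched no exon of any transcript, beside 75.6% of the 8778 peaks over protein-coding genes. The genes were chosen for table peaks, and all 14 of those touch an exon, so the choice lowers this share. Of the 40 peaks outside the table, 33 (82.5%) touched no exon. The 75.6% includes table peaks and so is not the counterpart of this 82.5%. The share over all peaks outside the table was not computed. The interval treats peaks of 1 gene as independent. Another 6 of the 54 (11.1%) touched exons of retained-intron transcripts, 1 (1.85%) the decay exon of Phip, and 14 (25.9%) exons of coding transcripts. Over the 8778 peaks the shares were 6.02% (other non-coding transcripts included), 0.342% and 18.1%. By summit, 44 of 54 were in introns of the principal transcript, and 6 of those 44 lay within 500 bases of one of its exons. Peaks that touched no exon had a median fold enrichment of 4.90 and those in coding transcripts 3.31. Over the same 54 peaks, fold enrichment fell with rising input background (Spearman's rho −0.726, and −0.766 over all 9271 peaks). This is a description, since background enters the ratio, and peaks of 1 gene share their libraries and transcript.

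**Figure D3:**
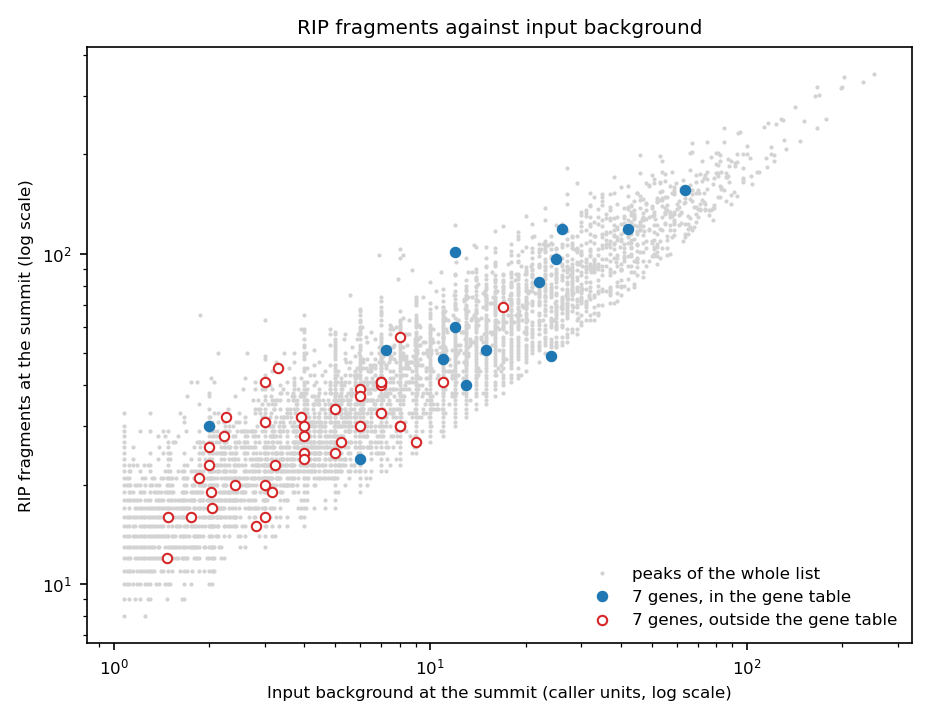
RIP fragments against input background at the summit, both on log axes. Grey points are the peaks of the whole list, filled blue points the 14 table peaks of the 7 genes and open red points their 40 peaks outside the table. Blue points lie mostly at high input, with a median background of 14.0, and red points at low input, with a median of 3.95; both fall inside the cloud of the whole list.

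Set against peaks of like background in the whole list, 24 of the 54 peaks lay within the quartiles of their class, 21 above the upper and 9 below the lower quartile. At a background under 4, the 21 peaks of these genes had a median of 6.07, beside 5.70 over 3579 peaks of the list. At 16 or more, the 7 such peaks had a median of 3.25, beside 2.51 over 1329 peaks, and 3.07 marked the upper quartile of the latter. In that class the Arid4a coding peak was the highest of the 7, at 4.00, and the Phip start codon peak the lowest. In the class from 8 to 16, the first Ncor1 peak reached 7.07, beside an upper quartile of 4.11, while the median of the 10 peaks, 3.13, was below the list's 3.46.

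The authors' table marks 8 of the 14 peaks (57.1%, exact 95% interval 28.9 to 82.3) for a 3' UTR, against 62.8% of all table peaks. Taking the principal transcript alone left 5 of 14 (35.7%), 3 in Phip and 2 in Atad2. The other 3 are the 2 Ncor1 peaks and the Phip decay exon. GGAC, whose matches cannot overlap each other, was searched on the gene's strand and occurred 10 times in the 3695 bases of the 14 peaks, 2.71 per kb (exact Poisson interval 1.30 to 4.98). Windows of the same width on either side held 2.17 per kb, and all table peaks with an assigned gene strand 3.07. The opposite strand of the 14 peaks held 2.98 per kb. These 3 values lie inside the interval, so no difference was detectable at this number of matches. At least 1 GGAC was in 9 of the 14 peaks (64.3%), beside 53.5% of 1451 table peaks, and GGACT was in 2.

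Of the table peaks marked for a 3' UTR, 4 held GGAC, and 30 bases around each match are shown with the match in capitals.
Phip 3' UTR, distal peak, chr9:82868920-82868949, minus strand: gtcttagtgtggaGGACctctagaatgggg
Phip 3' UTR, proximal peak, chr9:82870281-82870310, minus strand: ttaaaggattcaaGGACaatacaggaaaca
Ncor1-203 3' UTR, chr11:62402247-62402276, minus strand: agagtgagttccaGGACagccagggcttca
Atad2 3' UTR, distal peak, chr15:58094614-58094643, minus strand: ttcttccataatgGGACgttgaaacttctg
The Ncor1 match was the only one of the 10 in the table peaks that lies in masked repeat (10.0%, beside 7.69% over all table peaks), and it belongs to the 39-base run described for Ash1l. Outside the table, 12 of the 25 matches in peaks of these genes (48%) lay in repeats, beside 33.4% over all peaks outside it. None of the 14 table peaks was masked as repeat over 50% or more of its length, against 16 of the 40 peaks outside the table (40%). The same shares over the list were 8.05% of all table peaks and 40.4% of all peaks outside the table.

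The wider families were read from 13 lists of chromatin genes, 250 genes in all after matching. A table peak was found for 31 (12.4%), and for 24 of 243 (9.88%) without the 7 genes, beside the 5.87% of protein-coding genes. A peak over the body was found for 98 of those 243 (40.3%), beside 15.1% of protein-coding genes. Listed genes are long, with a median of 42.9 kb against 17.4 kb over all protein-coding genes. Among genes at least as long as that median, 22 of 125 listed genes (17.6%, members included) had a table peak, and 8.85% of the 5726 protein-coding genes. Phip, Ncor1, Ash1l, Arid4a and Arid4b are among the 22 and were chosen for their table peaks, which raises the 17.6%. The share without them was not computed. A body peak lay over 78 of the same 125 listed genes (62.4%, members included), beside 33.2% of the 5726.

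The families are given without the 7 genes, which were chosen for their table peaks, and differences between families were not tested. Of the H3K4 and H3K36 methylation list, 4 of 18 other genes had a table peak: Kmt2c, an H3K4 methyltransferase, at 7.34 (4.68 to 11.0), Nsd3 at 4.87 (3.51 to 6.58), Psip1, a reader of methylated H3K36, at 2.96 (2.18 to 3.94), and Nsd2 at 1.91 (1.44 to 2.48). Of the NCoR-HDAC3 complex, 0 of 6 others had one. Of the SIN3-HDAC list, 1 of 17 had one, the histone reader Ing1 at 2.62 (2.19 to 3.11). Of the PHIP and CUL4 ligase list, 1 of 7 had one, the RING subunit Rbx1 at 3.52 (2.80 to 4.36).

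Other bromodomain genes had 3 of 37, with the remodelling subunit Baz1a at 4.72 (2.69 to 7.80), the SWI/SNF ATPase Smarca2 at 3.40 (1.97 to 5.54) and Trim24 at 2.13 (1.60 to 2.79). The ARID family had 1 of 12, the demethylase Kdm5b at 2.71 (1.91 to 3.73). Histone chaperones other than Asf1a had 3 of 25, with Nasp at 4.30 (2.65 to 6.65), Atrx at 2.29 (1.90 to 2.73) and Set at 1.77 (1.52 to 2.06). In lists that held none of the 7 genes, remodellers had 5 of 36, demethylases 3 of 22, acetyltransferases 3 of 25, Polycomb 2 of 27, and H3K9 and DNA methylation 1 of 26. The list of 15 deacetylases, sirtuins included, had 0 in the table and 4 (26.7%) with a peak over the body. Over all protein-coding genes these shares were 5.87% and 15.1%.

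**Figure D4:**
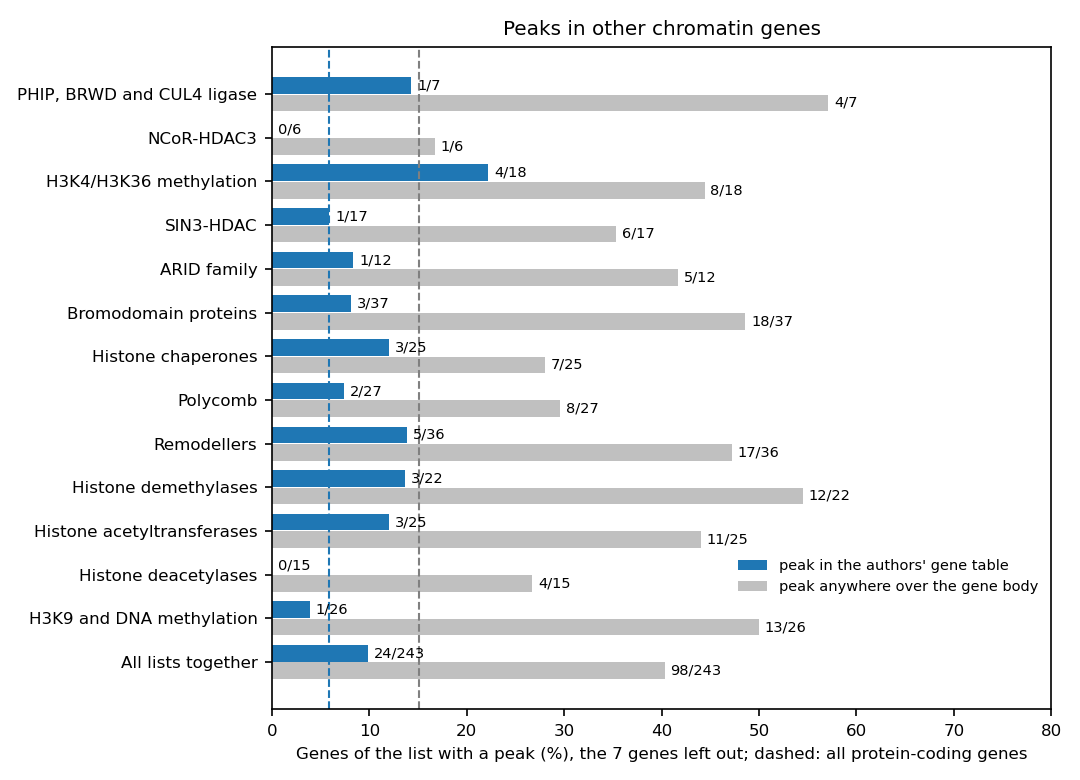
Share of genes with a peak in 13 lists of chromatin genes and in all lists together, with the 7 genes left out. The horizontal axis is the percent of the list's genes, blue bars for a peak in the authors' gene table and grey bars for a peak anywhere over the gene body, with the counts beside them; dashed lines mark all protein-coding genes, at 5.87% and 15.1%. The H3K4 and H3K36 methylation list has the longest blue bar (4 of 18), and the NCoR-HDAC3 and deacetylase lists have none.

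The authors' deposited table of Gene Ontology terms places 5 of the 7 genes, all but Phip and Atad2, in chromatin organization. In the authors' deposited table that term held 42 peak genes of 441, where 27.1 were expected, at an FDR of 0.0493. Chromatin binding, which among the 7 holds Ncor1, had 39 of 311 in the authors' deposited table against 18.9 expected, at an FDR of 0.000853. By the authors' deposited table histone binding, with Asf1a and Phip, had 11 of 87 against 5.28 and an FDR of 0.217. Histone modification, with Arid4a, Arid4b, Ash1l and Ncor1, had 21 of 270 there, against 16.6 and an FDR of 0.466. Histone methylation, with Arid4a, Arid4b and Ash1l, had 5 of 74 against 4.54 and an FDR of 0.705. Nucleosome assembly, with Asf1a, had 9 of 48 against 2.95 and an FDR of 0.0393. Further terms that hold any of the 7 genes are not given here. The sources used here do not give the gene background of that table, and the terms share genes.

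Of the fixed marker genes, 4 of 13 myotube genes (30.8%) had a table peak: Mylpf, Neb, Tnnt1 and Tnni2. So did 0 of 5 myoblast genes, 0 of 3 neuron genes and 1 of 4 fibroblast genes, Col3a1. Over all protein-coding genes the share was 5.87%, so counts of 0 in lists this short carry little information. The identity of the cells was not tested.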

How the data were processed

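The authors aligned reads of 150 bp to mm10 with Bowtie and called peaks with MACS on 1 RIP library over input, per the series' design text; the versions and parameters they used are not given here. The deposited peak list gives, per the file headers, pileup (a signal), fold enrichment (a ratio), and −log10 of the p-value and q-value. A deposited table pairs peaks with genes and marks elements, by a rule that no source states. The authors' deposited table of Gene Ontology terms gives gene counts and Fisher p-values.

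Pileup came in steps of 0.9, read as 1 RIP fragment each; background was computed from pileup and fold enrichment. Intervals hold the background fixed. Library depth is unknown. Peaks were assigned to GENCODE M21 gene bodies (GRCm38, the same build as mm10) by an overlap of at least 1 bp; sequence is RefSeq's GRCm38. The principal transcript is the APPRIS principal one with the longest coding sequence. Of the 1285 table genes, 1275 matched protein-coding genes. Interval and motif code was tested on simulated data. Python 3.11.15, pandas 2.3.3, scipy 1.17.1, pysam 0.24.0 and Biopython 1.88 were used.

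The genes, lists and rules were chosen with earlier results of these data known. Named genes are the 7 genes, genes with as many table peaks as Phip, and up to 6 genes a list by fold enrichment; remodellers, demethylases, acetyltransferases, Polycomb, and H3K9 and DNA methylation are given as counts. Alternatives were fold and q-value thresholds, overlap rules, the peak that stands for a gene, and motif and window.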

Additional observations from a re-analysis of the deposited data

How the results depend on the processing

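Of 46 alternative values, 30 kept within the counting interval or within 1.5 times the count reported, and 16 moved. Keeping peaks at or above the list's median fold enrichment of 4.4 left 31 body peaks and 3 table peaks. It also left 9 listed chromatin genes with a table peak and a 3' UTR share of 100%. Those 3 table peaks are the Phip peak at 9.33 and both Ncor1 peaks. None of them lies in the principal transcript's 3' UTR. A fold enrichment of 4 or more left 5 table peaks and 13 of 250 listed genes (5.2%), beside 2.18% of protein-coding genes. Counting any body peak gave 105 listed genes (42.0%), beside 15.1% of protein-coding genes. Asking for 2 or more table peaks gave 11, where 218 of all 21728 protein-coding genes had as many. These counts of listed genes include those of the 7 chosen genes that pass. For the 9 listed genes, the share over all genes was not computed. Taking the highest fold enrichment over all body peaks gave 9.48 for Ncor1, 9.12 for Ash1l, 6.19 for Arid4a and 9.63 for Arid4b. For Phip, the peak of highest pileup gave 2.93, the median of its table peaks 3.08, and peaks in the principal transcript 3.68, an alternative chosen after seeing the data; that alternative has no value for Ncor1, Ash1l and Asf1a, which have no such peak of their own. GGACT had a density of 0.541 per kb. The cause of these shifts was not tested beyond what each alternative's construction shows. No paired analysis was possible because each group has 1 library. At 12 to 156 RIP fragments a peak, folds of neighbouring peaks mostly overlap in their intervals.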
